A study of Mus musculus with 61 samples.

Results

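The adhesion, matrix and actin cytoskeleton genes described here are 53 of the 5154 genes in a Sono-seq table of mouse cells at day 3 of reprogramming. They were taken by gene symbol, with a name pattern for collagens, integrins, laminins, actins and actinins, myosins, tropomyosins, PDZ-LIM proteins, talin, plectin, Arp2/3 subunits, capping proteins, fascin, and the regulators of small GTPases named Arhgap and Arhgef. They hold 58 of the 5513 start sites and 298 of the 14265 enhancers of that table. The table is labelled mESC, for mouse embryonic stem cells, which are not the cells assayed. Whether its enhancers are in use in the cells assayed was not tested. The 53 genes were taken by symbol and not by a measured value, though earlier results of these data were known when the pattern was chosen. Filamins, Lims genes, other actins and most collagens, which the pattern would also take, had no row with a matching symbol in that table. The name pattern also took Col4a3bp, which RefSeq now lists as Cert1 and which encodes a ceramide transfer protein that only shares the collagen name.

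The cells were mouse embryonic fibroblasts (MEFs) from E13.5 embryos of strain Black6-129X1/SvJ, with the genotype Col1a1::tetOP-OKSM ; R26-M2rtTA. This genotype places a doxycycline-driven cassette of Oct4, Klf4, Sox2 and Myc (OKSM) at the collagen gene Col1a1, and all groups carry it. All groups also received doxycycline and ascorbate in a serum/LIF medium and were collected at day 3. The Sox2 ChIP-seq data came from cells with the hairpin Chaf1a.166, the hairpin Chaf1a.2122 or the Renilla control hairpin. Both Chaf1a hairpins target the large subunit of CAF-1, the chaperone complex that places histones on newly copied DNA. Each hairpin had 1 immunoprecipitate and 1 input library. The Sono-seq data came from 3 libraries labelled CAF-1 knockdown, for which no hairpin is named and which the header of the deposited table calls CAF mutant, and 3 Renilla libraries. These are 12 of the 61 samples of the series, and the other 49 were not analysed here. The knockdown of Chaf1a itself was therefore not checked, nor was the fibroblast state of the cultures, since both need RNA. The sources used here do not say which libraries came from separate cultures.

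Fibroblasts hold on to a matrix of collagens, fibronectin and laminins through integrins. Inside the cell, talin, actinins and PDZ-LIM proteins connect integrins to actin bundles, on which non-muscle myosin pulls, and plectin connects them to intermediate filaments. Small GTPases set how much of this apparatus is built, switched on by exchange factors (GEFs) and off by GTPase-activating proteins (GAPs). Early reprogramming is known for the loss of fibroblast shape and stress fibres and the gain of epithelial contacts.

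Sono-seq reads the DNA that sonication frees from fixed chromatin, and open regions give more of it. The deposited table gives 1 value for CAF-1 knockdown and 1 for Renilla at each region, without a unit, and the values of all regions lie between 0.0015 and 4.21. How 3 libraries were reduced to 1 value is not stated in these sources. There is thus no replicate spread, no standard error and no test between conditions, and every ratio below is a description of these 2 values. Ratios are log2 of CAF-1 knockdown over Renilla, so a positive ratio means a higher value with CAF-1 knockdown. A region was counted as higher or lower past the cutoff where its log2 ratio was at least 0.322 in size, that is, where one value was at least 5/4 of the other. The libraries are bulk chromatin, in which a region open in fewer cells and a region less open in each cell cannot be told apart.

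Some promoters carry a Sox2 position close to the start or a motif of actin gene control. Arpc4, Tln1 and Myo1c are of this kind but are not printed, and further examples are shown first. Each runs 5′ to 3′ from 250 bases before to 50 after a RefSeq start (300 bases, build GRCm38.p6, minus strand except Myo1e on the plus strand). Arhgap28 lies at chr17:68004059-68004358, Actn4 at chr7:28962283-28962582, Pdlim5 at chr3:142395647-142395946, Actg1 at chr11:120348446-120348745 and Myo1e at chr9:70207100-70207399. Capitals mark GGGCGTGG and ATGCTAAT in Arhgap28, AACAAT (read on the other strand) and GGGCGTGG in Pdlim5, TGANTCA and GGAATG (the second on the other strand) in Actn4, and the CArG box in Actg1 and Myo1e.
Arhgap28: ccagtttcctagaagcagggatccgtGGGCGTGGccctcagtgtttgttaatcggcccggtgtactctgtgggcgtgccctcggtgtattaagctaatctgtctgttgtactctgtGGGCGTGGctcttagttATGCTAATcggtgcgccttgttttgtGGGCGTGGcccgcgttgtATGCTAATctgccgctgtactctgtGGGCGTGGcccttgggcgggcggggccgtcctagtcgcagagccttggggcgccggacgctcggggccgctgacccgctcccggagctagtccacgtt
Actn4: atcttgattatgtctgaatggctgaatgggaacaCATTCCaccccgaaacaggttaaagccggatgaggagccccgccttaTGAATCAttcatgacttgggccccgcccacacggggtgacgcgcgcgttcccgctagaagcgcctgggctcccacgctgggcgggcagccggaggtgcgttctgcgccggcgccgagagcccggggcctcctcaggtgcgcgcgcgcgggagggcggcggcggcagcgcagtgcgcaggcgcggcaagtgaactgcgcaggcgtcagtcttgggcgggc
Pdlim5: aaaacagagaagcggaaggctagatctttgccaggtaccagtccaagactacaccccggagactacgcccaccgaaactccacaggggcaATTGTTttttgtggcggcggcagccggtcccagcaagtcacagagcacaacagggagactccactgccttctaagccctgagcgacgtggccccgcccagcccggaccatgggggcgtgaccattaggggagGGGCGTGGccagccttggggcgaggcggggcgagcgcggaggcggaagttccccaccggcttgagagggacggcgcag
Actg1: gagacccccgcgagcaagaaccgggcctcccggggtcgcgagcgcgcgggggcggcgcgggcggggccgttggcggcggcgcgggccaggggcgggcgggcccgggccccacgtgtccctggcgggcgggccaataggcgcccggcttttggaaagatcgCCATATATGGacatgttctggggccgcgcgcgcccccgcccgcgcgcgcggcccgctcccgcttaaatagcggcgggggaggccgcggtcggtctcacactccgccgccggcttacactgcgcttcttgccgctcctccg
Myo1e: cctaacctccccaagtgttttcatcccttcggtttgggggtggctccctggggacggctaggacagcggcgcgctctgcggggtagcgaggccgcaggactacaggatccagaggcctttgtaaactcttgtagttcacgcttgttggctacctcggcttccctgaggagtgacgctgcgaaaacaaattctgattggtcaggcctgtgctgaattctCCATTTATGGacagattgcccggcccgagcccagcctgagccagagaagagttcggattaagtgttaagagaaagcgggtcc

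At the promoters as a whole, CAF-1 knockdown and Renilla cells had nearly the same Sono-seq values. The median log2 ratio of the 58 start sites was 0.01, with a 95% interval from order statistics of -0.08 to 0.11 and an SD over start sites of 0.24. The median over the 5455 other start sites was -0.01 (-0.02 to -0.0028), and -0.0030 when averaged within 5 level classes weighted to the listed genes. Of the listed start sites, 31 (53.4%) had the higher value with CAF-1 knockdown, against 48.2% of the others. Past the cutoff, 5 of 58 (8.62%) were higher with CAF-1 knockdown, where 6.68% of all promoters were. Another 5 (8.62%) were lower, where 8.98% of all promoters were. Both shares lie near the background, so these counts are no result about the listed genes. The listed promoters stood at a median level of 0.145, averaged over both conditions, against 0.142 for the others. The ratios spread to both sides within most families, as the plot of ratios by family shows.

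**Figure D1:**
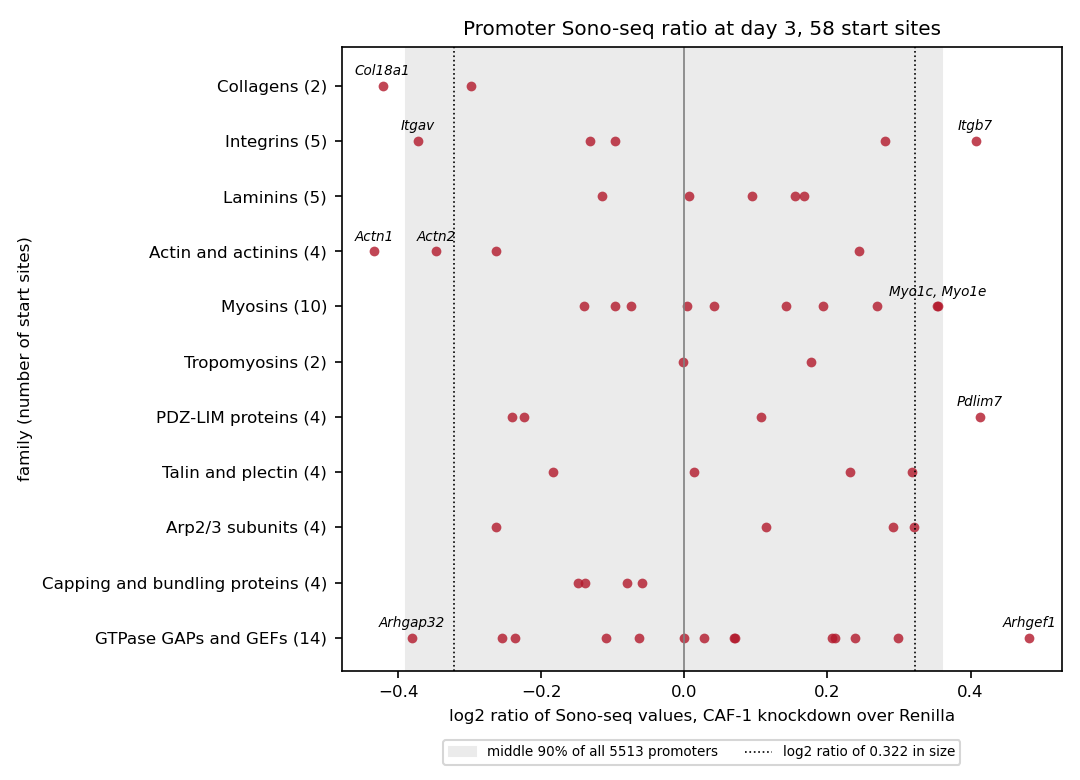
Log2 ratio of the deposited promoter Sono-seq values, CAF-1 knockdown over Renilla, for the 58 start sites (points) by family, with the number of start sites in brackets. The grey band is the middle 90% of all 5513 promoters, from -0.39 to 0.36, and the dotted lines are the cutoff. The 5 start sites past the cutoff on each side are named, and no family lies wholly past it.

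Among matrix genes, none of the 5 laminin promoters passed the cutoff, where 6.68% of all promoters were higher and 8.98% lower past it. Lamc1 encodes the gamma chain of most laminins and had 0.160 in CAF-1 knockdown cells and 0.173 in Renilla cells, a log2 ratio of -0.11. Lama1, an alpha chain of early embryonic basement membranes, had 0.156 in CAF-1 knockdown cells and 0.155 in Renilla cells. Lama5, the broadly used alpha chain of later tissues, had 0.151 in CAF-1 knockdown cells and 0.136 in Renilla cells, a log2 ratio of 0.15. Lamb1-1 (RefSeq Lamb1), the common beta chain, had 0.117 in CAF-1 knockdown cells and 0.110 in Renilla cells, one of the lowest levels of the listed promoters. Both genes with a collagen name had lower values with CAF-1 knockdown. Col18a1, a basement membrane collagen and the source of endostatin, had 0.136 in CAF-1 knockdown cells and 0.182 in Renilla cells, a log2 ratio of -0.42. Col4a3bp had 0.0986 in CAF-1 knockdown cells and 0.121 in Renilla cells, a log2 ratio of -0.30. Its start lies within 1 kb of that of Polk, so its value may belong to either. Arpc4, Capza1, Myl4, Myo19 and Myo9b likewise start within 1 kb of another gene.

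Of the 5 integrin promoters, 1 was past the cutoff in each direction, where 6.68% of all promoters were higher and 8.98% lower past it. Itgb7, a beta chain of leukocyte integrins, had 0.185 in CAF-1 knockdown cells and 0.140 in Renilla cells, a log2 ratio of 0.41. Itgav, the alpha chain of vitronectin receptors, had 0.113 in CAF-1 knockdown cells and 0.147 in Renilla cells, a log2 ratio of -0.37. Itga6 and Itga3 both encode alpha chains of laminin receptors, and their ratios had opposite signs. Itga6 had 0.133 in CAF-1 knockdown cells and 0.110 in Renilla cells, a log2 ratio of 0.28. Itga3 had 0.150 in CAF-1 knockdown cells and 0.160 in Renilla cells, a log2 ratio of -0.10. Itga5, the alpha chain of the fibronectin receptor, had a log2 ratio of -0.13.

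The linkers between integrins and actin included the lowest ratio and one of the highest. Actn1, a non-muscle actinin of stress fibres and adhesions, had 0.106 in CAF-1 knockdown cells and 0.144 in Renilla cells. Its log2 ratio of -0.43 was the lowest of the 58 start sites. Actn2, a muscle actinin of the Z disc, had 0.118 in CAF-1 knockdown cells and 0.150 in Renilla cells, a log2 ratio of -0.35. Actn4, the other non-muscle actinin, had 0.150 in CAF-1 knockdown cells and 0.126 in Renilla cells, so its log2 ratio of 0.24 had the sign opposite to Actn1. Pdlim7, a PDZ-LIM protein of stress fibres, had 0.156 in CAF-1 knockdown cells and 0.117 in Renilla cells, a log2 ratio of 0.41. Pdlim5, of the same family, was lower with CAF-1 knockdown at both start sites, which lie close together, with log2 ratios of -0.24 and -0.22. Tln1, talin, had 0.151 in CAF-1 knockdown cells and 0.172 in Renilla cells, a log2 ratio of -0.18, at a start shared within 1 kb with Creb3.

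Plec, the plectin gene, had the highest promoter levels, at 2 of its start sites. Its 3 start sites in the table read 0.254, 0.308 and 0.203 in CAF-1 knockdown cells and 0.251, 0.262 and 0.163 in Renilla cells. The log2 ratios of these starts were 0.01, 0.23 and 0.318, and the third stayed just under the cutoff. The starts of 1 gene thus ranged from no difference to nearly the cutoff.

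Genes of actin filaments themselves stayed within the cutoff. Actg1, cytoplasmic gamma actin, had 0.128 in CAF-1 knockdown cells and 0.154 in Renilla cells, a log2 ratio of -0.26. The 4 Arp2/3 subunits, which build branched actin, ranged from -0.26 for Arpc5 to 0.321 for Arpc2. Arpc2 had 0.180 in CAF-1 knockdown cells and 0.144 in Renilla cells and lay just inside it. The 4 start sites of capping and bundling proteins all had lower values with CAF-1 knockdown, from -0.15 to -0.06, and none passed the cutoff. They belong to 3 genes, and the Capzb starts lie close together. Fscn1, fascin, which bundles actin in filopodia, came next in level, 0.210 in CAF-1 knockdown cells and 0.219 in Renilla cells.

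Among motor genes, 2 of 10 myosin start sites were past the cutoff, both higher with CAF-1 knockdown and both of class I myosins, which tie membranes to actin. Of all promoters, 6.68% were higher and 8.98% lower past the cutoff, and the myosin count was not tested. Myo1e had 0.158 in CAF-1 knockdown cells and 0.124 in Renilla cells, a log2 ratio of 0.35. Myo1c had 0.218 in CAF-1 knockdown cells and 0.170 in Renilla cells at the start at 75465651, a log2 ratio of 0.35. At its other start it had 0.191 in CAF-1 knockdown cells and 0.158 in Renilla cells, a log2 ratio of 0.27. The heavy chains of non-muscle myosin II had ratios of opposite sign, -0.07 for Myh9 and 0.19 for Myh10. Their light chain Myl12b had a log2 ratio of -0.10. The tropomyosins Tpm1 and Tpm2, which line actin filaments, had log2 ratios of -0.0018 and 0.18.

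The 14 GAPs and GEFs of small GTPases held the highest ratio of all and 1 promoter lower past the cutoff. Past it, 6.68% of all promoters were higher and 8.98% lower. Arhgef1, an exchange factor for RhoA downstream of G proteins, had 0.161 in CAF-1 knockdown cells and 0.115 in Renilla cells, a log2 ratio of 0.48. Arhgef12, of the same subfamily, had 0.157 in CAF-1 knockdown cells and 0.133 in Renilla cells, a log2 ratio of 0.24. Arhgap32, a GAP for small GTPases, had 0.110 in CAF-1 knockdown cells and 0.143 in Renilla cells, a log2 ratio of -0.38. Arhgap28 had 0.185 in CAF-1 knockdown cells and 0.160 in Renilla cells, a log2 ratio of 0.21.

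**Figure D2:**
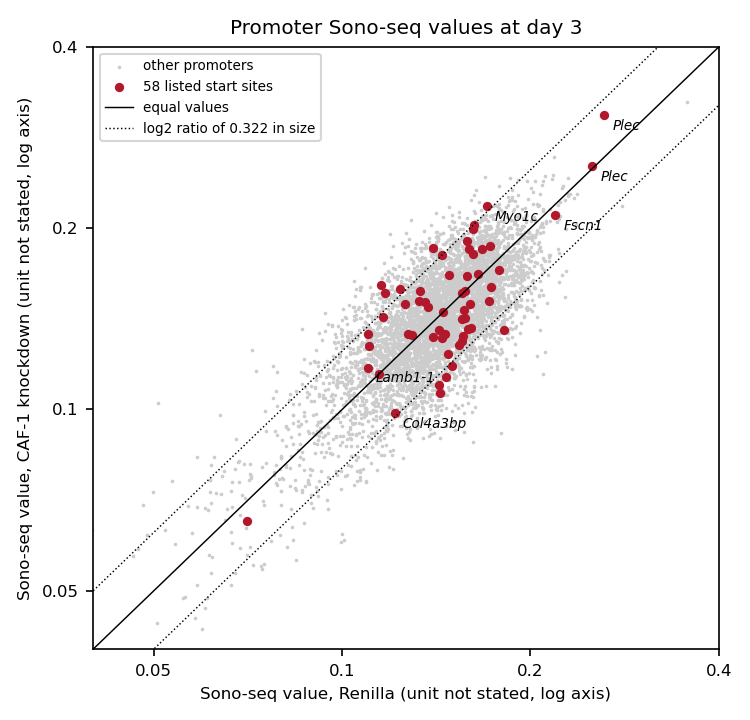
Deposited Sono-seq values of promoters in CAF-1 knockdown (vertical) against Renilla (horizontal), both on log axes in the unstated unit of the table. Red points are the 58 listed start sites and grey points the others, 21 of which fall outside the axes; dotted lines are the cutoff. The upper starts of Plec and Fscn1 stand at the upper end, and Col4a3bp and Lamb1-1 are among the lower ones.

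To ask where Sox2 was bound, the 3 lists of Sox2 positions were searched within 10 kb of each start site. Sox2 lay near 15 of the 53 genes in the Chaf1a.166 list (28.3%, exact Clopper-Pearson interval 16.8 to 42.3), where 28.5% of all genes were near. In the Chaf1a.2122 list it lay near 18 genes (34.0%, 21.5 to 48.3), where 33.4% of all genes were near. In the Renilla list it lay near 15 genes (28.3%, 16.8 to 42.3), where 29.3% of all genes were near. All 3 lists shared 13 of these genes (24.5%, 13.8 to 38.3), where the share of all genes was 20.8%. No list had a position near 33 of them (62.3%), where it was 58.7% of all genes. These shares lie near the background in each list, and those of other genes averaged within 5 classes of promoter level were 28.7% for Chaf1a.166, 33.5% for Chaf1a.2122 and 29.2% for Renilla. Intervals cover counting error only. Each list comes from 1 immunoprecipitate of unknown depth. Where a list has no position, Sox2 may still be bound there below what that list called.

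The genes with Sox2 near the start in all 3 lists included Lama1, Lamb1-1, Col4a3bp, Actg1, Actn4, Tln1, Plec, Fscn1, Myl12b, Arhgap28, Arhgef12 and Arhgef18. Lamc1, another laminin, had a position in the Chaf1a.2122 list. Of the 5 integrins, only Itgav had a position within 10 kb in any list. The share of all genes near Sox2 in the Chaf1a.2122 list only was 6.05%, and 3 listed genes were of this kind (Lamc1, Arpc5 and Arhgef7). Pdlim5 alone was near Sox2 in both knockdown lists and not in Renilla, as 2.99% of all genes were. Actn1 alone was near Sox2 in the Renilla list only, as 3.26% of all genes were. Myo1c alone was near Sox2 in the Chaf1a.166 list only, as 2.97% of all genes were. The map of positions around the start sites shows these genes together.

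**Figure D3:**
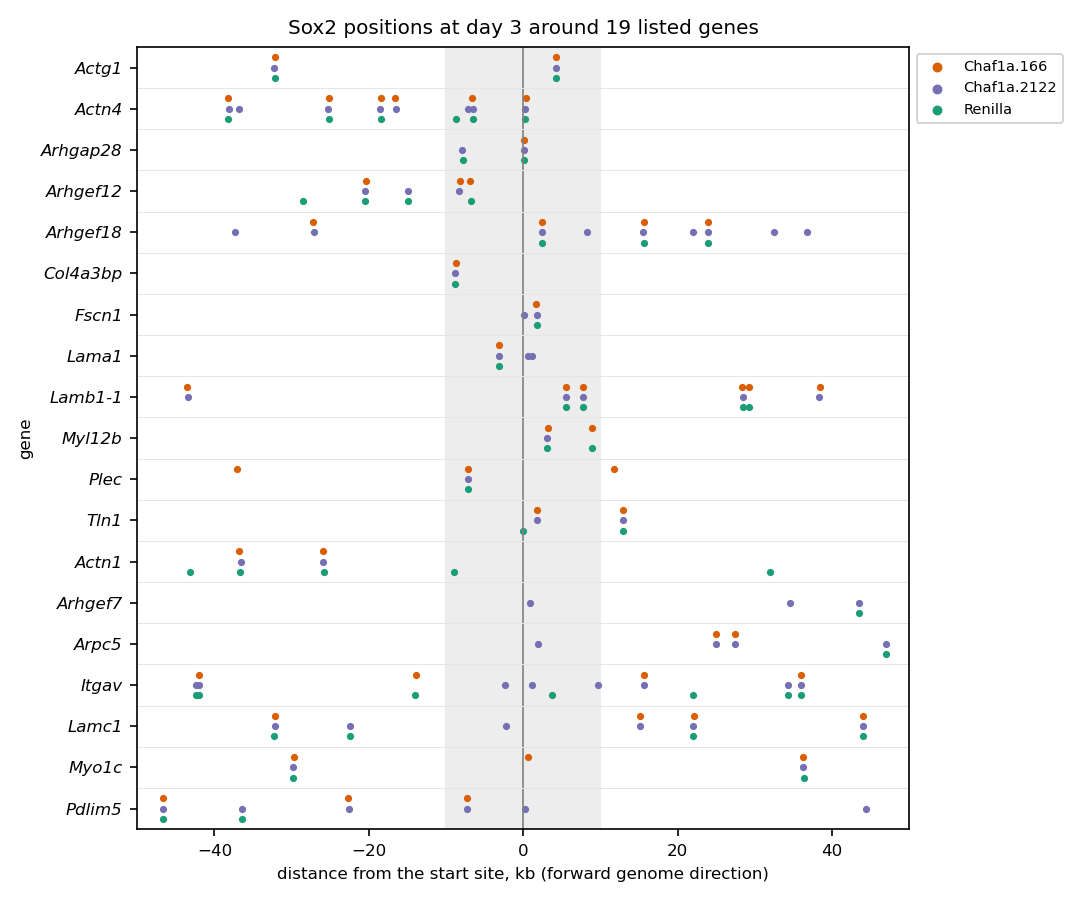
Sox2 positions within 50 kb of the first listed start site of 19 genes with a position within 10 kb (grey band) in at least 1 list, with the distance in kb along the forward genome direction. Each gene has 3 lines of points, for the Chaf1a.166, Chaf1a.2122 and Renilla lists. The upper 12 genes have positions of all 3 lists within 10 kb, while within that band Actn1 has a Renilla point only and Pdlim5 has points of both knockdown lists only.

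The strongest Sox2 site near any of these genes was at Lama1. It lay on chromosome 17 of mm9, at 68043466 in the Chaf1a.166 list, 68043478 in the Chaf1a.2122 list and 68043447 in the Renilla list, 3138, 3126 and 3157 bp from the start. By score it ranked 103 of 15888 in the Chaf1a.166 list, 234 of 19319 in the Chaf1a.2122 list and 383 of 17681 in the Renilla list. Its enrichment over input in the authors' lists was 136 for Chaf1a.166, 34.5 for Chaf1a.2122 and 38.6 for Renilla. The lists differ in length and their depth is unknown, so these ranks and enrichments place the site within each list and do not compare the hairpins. The Chaf1a.2122 list alone had weaker positions at 583 and 1171 bp from the Lama1 start, ranked 17782 and 12495.

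The sites near Lamb1-1 were shared as well. It had shared sites at 5502 and 7735 bp downstream in the Chaf1a.166 list, 5554 and 7719 bp in the Chaf1a.2122 list, and 5518 and 7700 bp in the Renilla list. They stood further down the lists, with ranks between 4627 and 9851. Lamc1 had 1 position within 10 kb, of the Chaf1a.2122 list, 2219 bp from the start and ranked 16199.

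Arhgap28, which encodes a GAP for RhoA, had the shared site closest to a start. The Sox2 position lay 136 bp upstream in the Chaf1a.166 list, 101 bp upstream in the Chaf1a.2122 list and 98 bp upstream in the Renilla list. It ranked 3127 in the Chaf1a.166 list, 6952 in the Chaf1a.2122 list and 5223 in the Renilla list. All of these fall inside the promoter printed above, taking the mm9 start and the RefSeq start as the same. The spacing to 7 of 15 neighbouring starts was the same in both builds within 100 bp. That promoter holds 4 copies of GGGCGTGG, a sequence of the kind bound by Klf factors, at -224, -134, -91 and -48 from the start. It also holds 2 copies of ATGCTAAT, a variant of the octamer bound by Oct factors, at -117 and -73. The GGGCGTGG copies at -134, -91 and -48 are evenly spaced, with the ATGCTAAT copies between them. Bases around these copies recur as well, so the copies are not independent matches. Of the 5215 RefSeq promoters of the genes in the table, 3 held 4 or more copies of GGGCGTGG, and 1 held 2 or more copies of ATGCTAAT, this one. These motifs were chosen after its sequence was read, and neither ACAATG nor AACAAT, the Sox motifs searched, is in this window.

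Actn4 had a shared site just upstream of its start, at 312 bp in the Chaf1a.166 list and 279 bp in both the Chaf1a.2122 and the Renilla list. It ranked 3941 in the Chaf1a.166 list, 2190 in the Chaf1a.2122 list and 2101 in the Renilla list. Taking the mm9 start and the RefSeq start as the same, these positions lie just beyond the upstream end of the printed promoter. The starts were matched only within 100 bp, so the positions may also fall inside it. The printed promoter holds TGANTCA at -169 and GGAATG at -216. A weaker shared site lay 6599, 6513 and 6527 bp downstream in the Chaf1a.166, Chaf1a.2122 and Renilla lists. Within 50 kb Actn4 had 6 positions in the Chaf1a.166 list, 8 in the Chaf1a.2122 list and 6 in the Renilla list, among the most of the listed genes.

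Actn1, its paralog, showed another picture. Its single position within 10 kb was of the Renilla list, 8956 bp downstream, with a rank of 15061 of 17681. Within 50 kb it had 2 positions in the Chaf1a.166 list, 2 in the Chaf1a.2122 list and 5 in the Renilla list. Pdlim5 had the reverse pattern near its start, with a shared knockdown position at 7246 bp in the Chaf1a.166 list and 7227 bp in the Chaf1a.2122 list. These ranked 15449 of 15888 in the Chaf1a.166 list and 15325 of 19319 in the Chaf1a.2122 list. Both cases thus rest on positions in the lower part of their lists. A Chaf1a.2122 position 186 bp upstream of the nearer Pdlim5 start ranked 17415. It falls in the printed promoter if the mm9 and RefSeq starts are the same. That promoter holds AACAAT at -160 on the other strand.

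Tln1 counted for all 3 lists through separate sites. The Chaf1a.166 and Chaf1a.2122 positions lay 1789 and 1765 bp upstream, and the Renilla position 89 bp downstream. All 3 were weak, with ranks of 14361, 10922 and 14683. Arhgef12 was also served by separate sites, one of both knockdown lists about 8252 bp downstream and one of Chaf1a.166 and Renilla about 6844 bp downstream. Myo1c had a Chaf1a.166 position 15 bp from its second start, ranked 8484. Fscn1 had a shared site 1706 bp downstream in Chaf1a.166, 1771 bp in Chaf1a.2122 and 1756 bp in Renilla, and a Chaf1a.2122 position 54 bp from the start. Plec had a weak shared site about 7128 bp from its nearest start, ranked 13615, 14818 and 13151 in the 3 lists.

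Actg1 and Myl12b each had a shared site upstream. Actg1 had one about 4.2 kb upstream, at 4214 bp in Chaf1a.166, 4193 bp in Chaf1a.2122 and 4212 bp in Renilla, ranked 5727, 5540 and 5410. Myl12b had one at 3148 bp upstream in Chaf1a.166, 3103 bp in Chaf1a.2122 and 3120 bp in Renilla, ranked 1269, 1552 and 2752. Arhgef18, an exchange factor of epithelial junctions, had one at 2378, 2415 and 2423 bp downstream in the Chaf1a.166, Chaf1a.2122 and Renilla lists, ranked 2598, 2124 and 3100. Col4a3bp had one about 8.8 kb upstream, at 8758, 8778 and 8802 bp.

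Positions near the start sites formed 37 sites when those within 200 bp were joined. All 3 lists held 13 of them (35.1%, 20.2 to 52.5), against 39.6% of the 2559 sites near other genes. The Chaf1a.2122 list alone held 12 (32.4%), against 18.1% of those near other genes. The exact interval of the listed genes includes that share at its lower end, sites of 1 gene are not independent, and Chaf1a.2122 is the longest list, so no difference is read from it. Both knockdown lists without Renilla held 3 sites (8.11%), against 7.19% of those near other genes, and Renilla alone held 4 (10.8%), against 11.6%. Within 2 kb of a start, Sox2 lay at 5 genes in the Chaf1a.166 list (9.43%, 3.13 to 20.7), against 13.9% of the other genes. At that distance it lay at 9 genes in the Chaf1a.2122 list (17.0%, 8.07 to 29.8), against 16.9% of the others, and at 4 in the Renilla list (7.55%, 2.09 to 18.2), against 14.3%. These intervals all include the share of the other genes. Within 50 kb it lay at 35 genes in Chaf1a.166 (66.0%), 37 in Chaf1a.2122 (69.8%) and 38 in Renilla (71.7%), against 65.8%, 70.5% and 66.4% of the others. Beside Actn4, the genes with 5 or more positions of a list within 50 kb were Arhgef18, Itgav, Lamb1-1, Lamc1, Myh9, Pdlim1, Pdlim5 and Actn1. Arhgef18 had 4 positions in Chaf1a.166, 9 in Chaf1a.2122 and 3 in Renilla. Itgav had 4 in Chaf1a.166, 8 in Chaf1a.2122 and 7 in Renilla, though no pair of lists shared any of its positions within 10 kb. Pdlim1 had 1 in Chaf1a.166, 3 in Chaf1a.2122 and 6 in Renilla.

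Motif matches in the promoters were few. A RefSeq promoter matched the start sites of 37 of the 53 genes, 6 had an entry at another start and 10 had no entry. The Sox motifs ACAATG and AACAAT were each found in 1 of the 37 promoters (2.70%), in Arhgef4 and Pdlim5, where 7.06% and 5.16% of all 5215 promoters hold them. The octamer ATGCAAAT was in 1 (Tln1), where 1.76% of all promoters hold it. The AP-1 motif TGANTCA was in 1 (Actn4), where 4.91% hold it, and the TEAD motif GGAATG in 4 (10.8%), where 12.1% hold it. GGGCGTGG was in 5 (13.5%), where 11.2% hold it, and ATGCTAAT in 1, where 0.748% hold it. The CArG box, the site of serum response factor known from actin genes, was in 3 (8.11%, 1.70 to 21.9), where 1.40% of all promoters hold it. These were Actg1 with CCATATATGG at -90 to -81, Myo1e with CCATTTATGG at -32 to -23 and Arpc4 with CCTAATTTGG at -250 to -241. Both strands were searched, and a match is a run of letters, not a bound site. The 37 promoters had passed the match by spacing, while the 5215 were not filtered in this way. No difference in motif shares was tested, that of the CArG box included. The listed promoters had a median G and C content of 64.7%, against 61.7% for all.

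At the enhancers, too, the values of CAF-1 knockdown and Renilla cells were close. The median log2 ratio of the 298 enhancers was 0.0038 (-0.02 to 0.05), against 0.03 (0.02 to 0.03) for the 13967 enhancers of other genes and 0.04 for these averaged within 5 level classes. Of the listed enhancers 51.3% had the higher value with CAF-1 knockdown, against 55.4% of the others. Past the cutoff, 22 (7.38%) were higher with CAF-1 knockdown, where 10.3% of all enhancers were. Another 21 (7.05%) were lower, where 6.58% of all enhancers were. The interval takes enhancers as independent, which those of 1 gene are not, and 31.5% of the listed enhancers are assigned to more than 1 gene, where 29.7% of all enhancers are. The listed genes had a median of 4 enhancers each (mean 5.77), against 3 (mean 4.07) for the others, and 10 of 53 (18.9%) had 10 or more, against 8.94%.

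By family, the medians of enhancer log2 ratios were lowest for the 61 myosin enhancers (-0.05, 22 higher with CAF-1 knockdown) and the 64 enhancers of the GAPs and GEFs (-0.03, 25 higher). The 32 laminin enhancers had a median of 0.02, with 18 higher. The 28 integrin enhancers had a median of 0.04, with 17 higher. The 27 enhancers of capping and bundling genes had a median of 0.08, with 19 higher, where 55.4% of the enhancers of other genes were higher. All 4 promoter ratios of these genes were below 0, but the 4 start sites include neighbouring starts of Capzb. The contrast was not tested.

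Among genes with at least 3 enhancers, Fscn1 had the highest mean log2 ratio, 0.20 ± 0.26 (SD over 5 enhancers), with 4 of them higher. Its highest enhancer, at 143737800 on chromosome 5, had 0.195 in CAF-1 knockdown cells and 0.133 in Renilla cells, a log2 ratio of 0.55. Pdlim1 (0.15 ± 0.28, 4 enhancers), Lamb1-1 (0.12 ± 0.23, 6), Itga3 (0.09 ± 0.14, 9) and Itgav (0.08 ± 0.21, 4) came next. These SDs are wider than the means, so enhancers of 1 gene lay on both sides of equality. Higher with CAF-1 knockdown were 2 of 4 for Pdlim1, 5 of 6 for Lamb1-1 and 7 of 9 for Itga3. For Itgav it was only 1 of 4, so its mean rests on 1 enhancer. Myl12b had the lowest mean, -0.23 ± 0.08 over 3 enhancers, and all 3 were lower. Its enhancers had 0.116, 0.127 and 0.136 in CAF-1 knockdown cells, against 0.131, 0.159 and 0.155 in Renilla cells. All 3 are also assigned to the gene 2900073G15Rik, so their values may belong to either. Arhgap32 (-0.10 ± 0.21, 8 enhancers), Myo10 (-0.09 ± 0.12, 8), Arhgef12 (-0.08 ± 0.18, 5) and Arhgef4 (-0.08 ± 0.16, 3) followed. Of the 8 enhancers of Myo10, a myosin of filopodia, 1 was higher with CAF-1 knockdown. Promoter and enhancer ratios of a gene did not go together, with a Spearman correlation of -0.03 across the 53 genes, given as a description of genes that share the same libraries. Across the 5101 other genes it was 0.01, so this is no trait of the listed genes. Arhgef1, with the highest promoter ratio, had 1 enhancer, at -0.31.

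**Figure D4:**
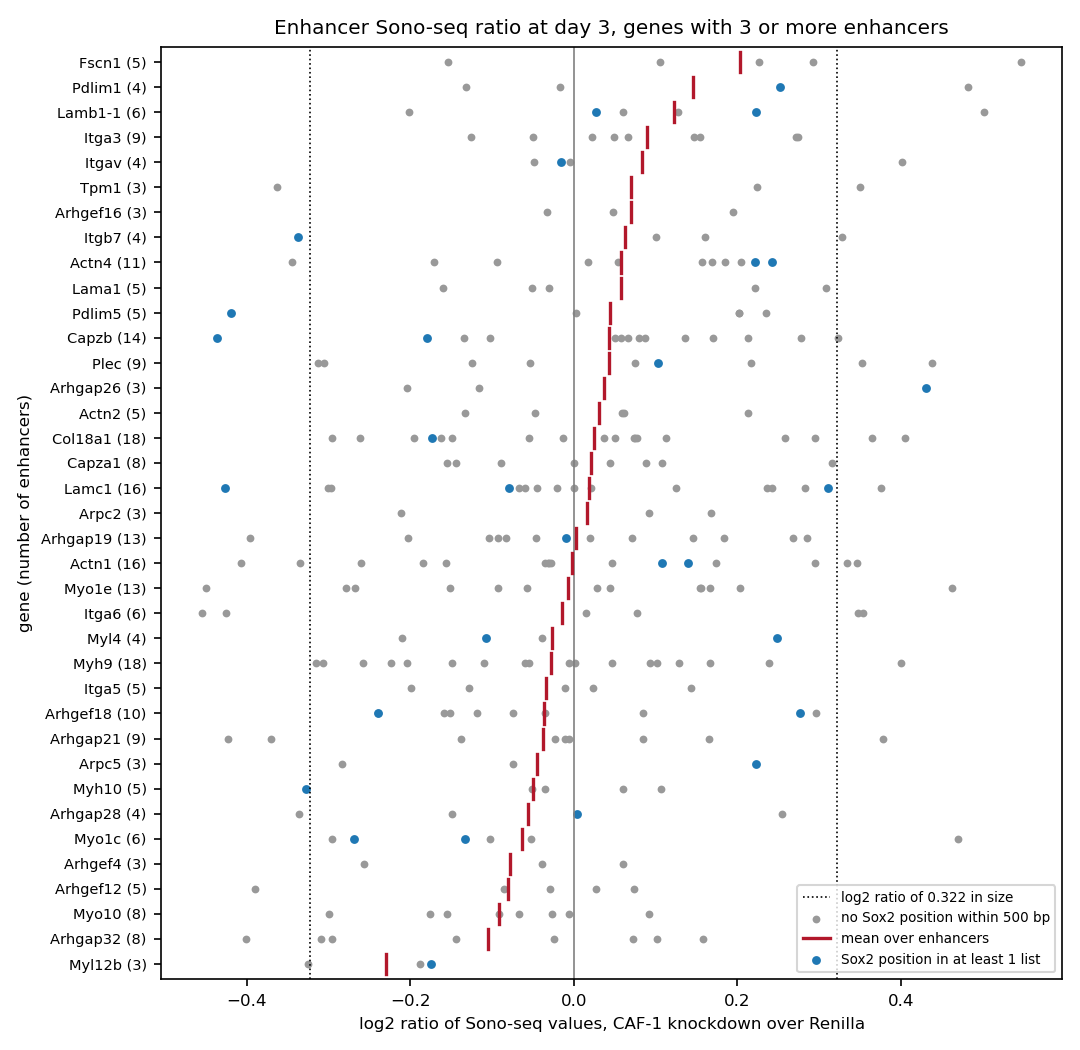
Log2 ratio of deposited Sono-seq values, CAF-1 knockdown over Renilla, for each enhancer (points) of 37 genes with 3 or more enhancers, ordered by the mean (red bar). Blue points have a Sox2 position of at least 1 list within 500 bp, and dotted lines are the cutoff. Myl12b at the bottom has all 3 enhancers below 0, while the enhancers of Fscn1 at the top lie on both sides.

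Sox2 positions lay at a larger share of the listed enhancers than of other enhancers in each of the 3 lists. Within 500 bp, 19 of 298 (6.38%, 3.88 to 9.78) had one in the Chaf1a.166 list, against 3.26% of the enhancers of other genes, and 3.33% of all. In the Chaf1a.2122 list 21 did (7.05%, 4.41 to 10.6), against 3.58% of the others and 3.65% of all. In the Renilla list 20 did (6.71%, 4.15 to 10.2), against 3.13% of the others and 3.2% of all. With any list it was 29 (9.73%, 6.61 to 13.7), against 4.68% of the others (4.33 to 5.04) and 4.78% of all. All 3 lists had one at 13 (4.36%), against 2.17% of the others and 2.22% of all. Averaged within 5 classes of enhancer level the share of the others was 5.04%, and within 5 classes of distance to the start 4.71%. The 29 enhancers belonged to 21 genes, and leaving out each gene in turn gave between 9.18% (without Myl4) and 10.4% (without Myh9). This comparison was chosen after the values were seen, enhancers of 1 gene share their neighbourhood, and the difference was not tested. The shares of the 3 lists lay close together, as the plot of shares shows.

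**Figure D5:**
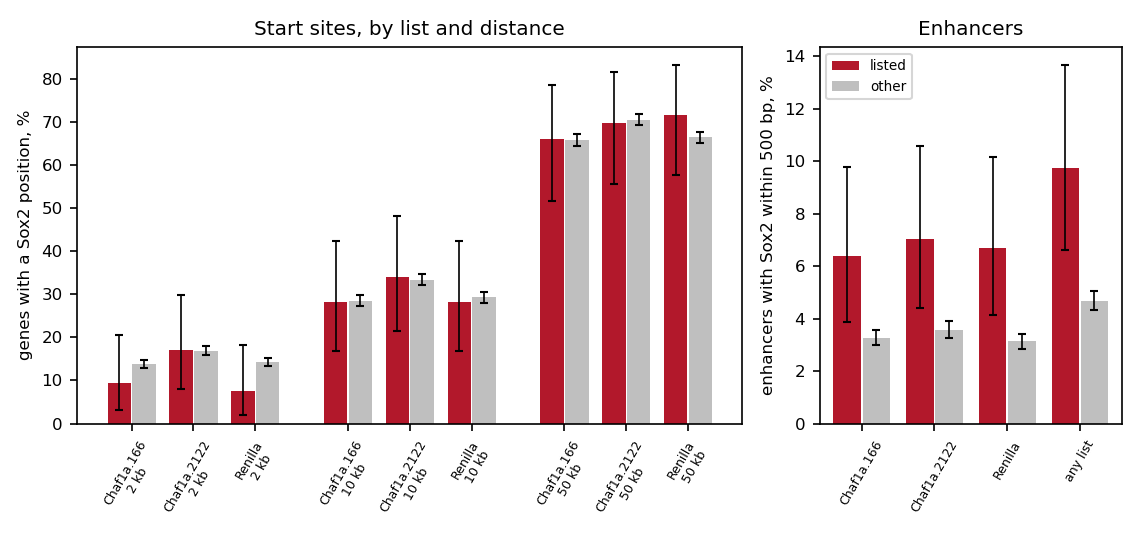
Left, percent of genes with a Sox2 position within 2, 10 and 50 kb of a start site in each list; right, percent of enhancers with a Sox2 position within 500 bp. Red bars are the listed genes or enhancers and grey bars the others, with exact 95% Clopper-Pearson intervals. At 10 kb the red and grey bars are alike (28.3% and 28.5% for Chaf1a.166), while at enhancers the red bars are higher in every list (9.73% and 4.68% for any list).

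Median Sono-seq ratios of the listed enhancers with and without Sox2 were close. Their median log2 ratio was -0.01, with 14 of 29 higher with CAF-1 knockdown, against 0.01 and 139 of 269 for those without Sox2. Past the cutoff, 1 of the 29 was higher and 5 lower with CAF-1 knockdown, against 21 higher and 16 lower of the 269. Of all enhancers, 10.3% were higher and 6.58% lower past the cutoff, and the difference in these counts was not tested. An enhancer of Pdlim5, at 142012300 on chromosome 3, had 0.127 in CAF-1 knockdown cells and 0.169 in Renilla cells, a log2 ratio of -0.42, with Sox2 in all 3 lists. The enhancer at the nearer Lamb1-1 site, at 31955800 on chromosome 12, had 0.152 in CAF-1 knockdown cells and 0.130 in Renilla cells, a log2 ratio of 0.22, also with Sox2 in all 3 lists. Sites bound in every list thus lay at enhancers with ratios of either sign. The enhancer at the Renilla position near Actn1, at 81352700 on chromosome 12, had 0.153 in CAF-1 knockdown cells and 0.142 in Renilla cells, a log2 ratio of 0.11. The enhancer at the Chaf1a.2122 position near Arhgef18, at 3401700 on chromosome 8, had 0.154 in CAF-1 knockdown cells and 0.127 in Renilla cells, a log2 ratio of 0.28.

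Adhesion and actin genes outside the name pattern were read from a list of 104 symbols, of which 58 were in the table with 62 start sites. Their median promoter log2 ratio was -0.05, with 4 start sites higher past the cutoff (6.45%, where 6.68% of all promoters were) and 8 lower (12.9%, where 8.98% were). Vcl, vinculin, the partner of talin at adhesions, had the lowest of them, -0.53, and Rhoc, a small GTPase of cell movement, had -0.44. Yap1, a co-activator that responds to cytoskeletal tension, had -0.38, and its DNA-binding partner Tead1 had 0.34. Wasf1, an activator of Arp2/3, had the highest, 0.41. Sox2 lay within 10 kb of 30 of the 58 genes in the Chaf1a.166 list (51.7%), 30 in the Chaf1a.2122 list (51.7%) and 28 in the Renilla list (48.3%), where 28.5%, 33.4% and 29.3% of all genes were near. All 3 lists had it near 22 (37.9%, where 20.8% of all genes were), among them Vcl, Fn1, Sparc, Yap1, Tead1 and Cnn3. No list had it near 21 (36.2%, where it was 58.7% of all genes). The list was drawn up with earlier results of these data known, and the differences were not tested.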

How the data were processed

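Sox2 ChIP-seq (1 immunoprecipitate and 1 input per hairpin) and Sono-seq (3 libraries per condition) were analysed from the deposited tables. The genome build mm9 and the aligners BWA (version 0.7.8) and Bowtie are listed, per the submitters' processing notes, with no word on which served which assay. Per the file headers, each Sox2 position has a score, a false discovery rate (q-value) and an enrichment ratio with its lower bound, all computed by the authors. The program that called positions is not stated there. The deposited Sono-seq values, 1 per condition and region, have no stated unit and were treated as a score. Read depth is unknown. No sample column was left unmapped (0).

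Distinct start sites and enhancers were counted once, 136 symbols turned into dates were restored through RefSeq transcripts, and log2 ratios were taken without a constant. Comparisons with other genes averaged these within 5 classes of equal size by level, weighted to the listed genes. Planned tests on single libraries could not be run. Intervals are exact Clopper-Pearson or, for medians, order statistics, at 95%. The members and lists were chosen with earlier results of these data known. Named genes are those with Sox2 within 10 kb in all 3 lists, in both knockdown lists only or in Renilla only, the 5 highest and lowest promoter and mean enhancer ratios (3 or more enhancers), the 3 highest and lowest levels, and those with 5 or more positions of a list within 50 kb. Some listed genes are counted but not reported here by name. Others are named as family examples or after their values were seen. RefSeq promoters (GRCm38.p6) were matched where the spacing to at least 5 of 15 neighbouring start sites held within 100 bp, and no coordinate was converted. The scripts were tested on simulated data, where 100% of 262 genes near a position (of 5154) and 100% of 200 promoters past the cutoff (of 5513) were recovered, with 0 false. The simulated promoters were set well past the cutoff with little noise. This therefore checks the code only and gives no error rate for the cutoff in the real values. Python 3.11.15, numpy 2.4.6, pandas 2.3.3, scipy 1.17.1 and matplotlib 3.10.9 were used.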

Additional observations from a re-analysis of the deposited data

How the results depend on the processing

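No paired analysis was possible because each condition has a single deposited Sono-seq value per region and each Sox2 list comes from 1 immunoprecipitate; for the same reason no replicate could be left out. Of 50 alternatives to the summary values, 32 stayed within 1.5 times the reported count or within the interval of the reported value, and 18 moved. Those that moved were all counts or shares, whose size depends on the distance, cutoff or filter set. The tally therefore does not measure how the listed genes compare with the others. Restricted to promoters above the median level, 2 were higher and 1 lower past the log2 cutoff of 0.322; at a cutoff of 0.20 it was 16 and 12, and at 0.58 0 and 0. With 2 kb in place of 10 kb, 5 (Chaf1a.166), 9 (Chaf1a.2122) and 4 (Renilla) genes were near Sox2 (others 13.9%, 16.9% and 14.3%), 4 in all 3 lists (7.55%, others 8.51%); with 50 kb, 35, 37 and 38, 32 in all 3 (60.4%, others 55.8%). Counting only positions whose lower bound of enrichment was 2 or more, 8 genes were near Sox2 in all 3 lists (15.1%, others 11.8%), and 10 (Chaf1a.166), 12 (Chaf1a.2122) and 11 (Renilla) in the single lists (others 20.3%, 20.7% and 19.8%). The enhancer share with Sox2 was 6.04% (others 2.76%) at 250 bp, 15.4% (others 7.72%) at 1000 bp and 6.04% (others 3.26%) with that lower bound; these enhancer alternatives were chosen after seeing the data. The medians near 0 turned sign without leaving their intervals: the promoter median was -0.0090 with both conditions scaled to 1 median (a shift of 0.02 in log2), and the enhancer median -0.016 with that scaling, -0.00061 above the median level and -0.0050 over enhancers of 1 gene. Of 116 alternatives for single promoters, 1 crossed the cutoff, Actn2 at -0.31 with a constant of 0.014 added, and 3 had the other sign, none past the cutoff. The lack of replicate values and the unknown depth of the Sox2 lists limit these results.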
